A study of Mus musculus with 4 samples.

Results

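A group of 9 genes was followed through RNA from dendritic cells of mouse spleen: the C/EBP transcription factors Cebpa, Cebpb and Cebpd, and the monocyte markers Ly6c2, Lyz2, Fn1, Vcan, F13a1 and Chil3. They were chosen by name, as the rows of the deposited table whose Ensembl identifiers map to these symbols. All 9 of 9 were found among the 17300 genes of the table, and all 9 entered the test among 11864 genes. The genes were listed with earlier results of these data known, so their directions are described and are not independent evidence.

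Total RNA was read from flow-sorted splenic dendritic cells in 4 libraries, 2 of genotype KO and 2 of genotype WT. The labels give no deleted gene, strain, age, sex or treatment, and do not say if the 2 samples of a genotype are from different animals, so the p-values below reflect the spread of these samples alone. For the WT pair that spread may be technical, while the KO libraries differ in Y-linked RNA, with values below, and are not repeats of 1 RNA sample. The series title concerns Siglec-E, an inhibitory sialic acid receptor of myeloid cells, and the KO titles carry the letters EKO. Each column name starts with Allo, a term left unexplained by the labels. Numbers in the KO column names match no KO title, so these libraries are called KO A and KO B, beside WT 1 and WT 2. How the knockout was made and which gates defined the cells is not given in these sources.

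C/EBP proteins are basic leucine zipper factors that pair with each other and bind a shared DNA site. C/EBPα directs progenitors into the granulocyte and monocyte lineages, while C/EBPβ and C/EBPδ are induced in mature myeloid cells by inflammatory and growth signals and drive many cytokine and acute phase genes. Classical monocytes carry Ly6C on their surface, release lysozyme and express matrix and coagulation genes such as fibronectin, versican and factor XIII. Conventional dendritic cells arise from a separate branch of the same progenitors and depend on other factors, so these genes are commonly read as signs of a monocyte programme or of monocytes among sorted cells. In bulk RNA, more cells of a type and more RNA per cell cannot be told apart.

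Values are given as normalized counts, obtained by undoing the variance-stabilizing transform of the deposited log2 values, and as log2 differences of the deposited values, KO minus WT. The 4 libraries held between 29002408 and 30952251 such counts after the authors' scaling between libraries, so these sums are not sequencing depths. Siglece, which encodes Siglec-E, stood at 101 and 111 counts in the KO libraries and at 859 and 666 in WT, a log2 difference of -1.32 (SE 0.107, limma adjusted p = 0.0138). This order follows the labels, though the sources used here do not say whether its reads lie in the deleted part. Library KO A stood apart in Y-linked RNA, with Ddx3y at 64.5 counts against 3102 to 3979 and Eif2s3y at 32.2 against 1725 to 1921 in the other 3. The gap was smaller for Kdm5d, with 551 counts in KO A against 2089 in KO B and 2908 and 2844 in WT. The part of this in the results below was not tested. Differences without KO A are given below for Cebpb, Fn1, Lyz2, Ly6c2 and Vcan, and medians without it for the classical and patrolling monocyte markers.

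All 9 genes had a higher mean in KO than in WT. Of these, 3 passed an adjusted p of 0.05 in limma, Cebpb, Fn1 and Lyz2, 0 passed as lower, and 6 did not pass. Over all genes tested, 4.69% were called higher in KO and 2.23% lower, so 6.93% were called. In 8 of the 9 genes both KO libraries lay above both WT libraries, and Chil3 was the exception. That ordering held for 28.1% of all genes tested. The median log2 difference of the 9 genes was 0.70, against -0.002 over all genes tested. An exact permutation test of 2 libraries against 2 cannot go below a two-sided p of 1 in 3 and was not used for single genes.

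**Figure D1:**
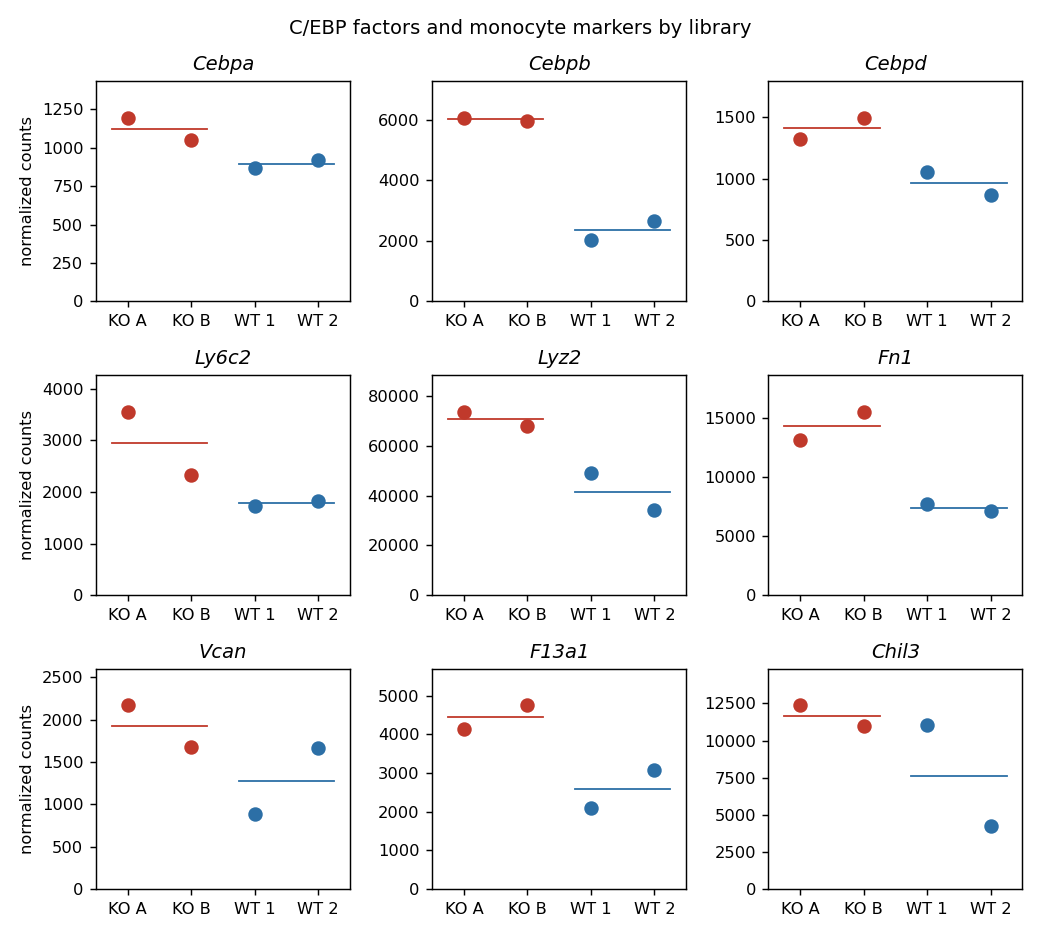
Normalized counts of each of the 9 genes in the 4 libraries, 1 panel per gene, with the y axis starting at 0; points are libraries (red KO, blue WT) and lines are group means. Both KO points lie above both WT points in all panels but Chil3, where KO B and WT 1 are level at 10992 and 11045 counts, and in Vcan the lowest KO point and the highest WT point nearly touch at 1682 and 1670.

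Before the values, the upstream sequence of 4 of the genes shows which factor-binding letters lie next to their annotated starts. These are the 250 bases before the start in RefSeq's annotation of GRCm38.p6, an older build than the GRCm39 named in the submitters' processing notes, given 5′ to 3′ on the gene's strand. Capitals mark letters that match a searched motif. Cebpa and Cebpb stand for the factors, and Lyz2 and Chil3 for the markers.
Cebpa, chr7:35119043-35119292, plus strand: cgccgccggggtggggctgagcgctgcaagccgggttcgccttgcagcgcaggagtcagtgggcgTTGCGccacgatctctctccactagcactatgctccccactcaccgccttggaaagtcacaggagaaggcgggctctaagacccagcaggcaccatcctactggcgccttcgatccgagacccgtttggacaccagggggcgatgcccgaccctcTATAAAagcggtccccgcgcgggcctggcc
Cebpb, chr2:167688665-167688914, plus strand: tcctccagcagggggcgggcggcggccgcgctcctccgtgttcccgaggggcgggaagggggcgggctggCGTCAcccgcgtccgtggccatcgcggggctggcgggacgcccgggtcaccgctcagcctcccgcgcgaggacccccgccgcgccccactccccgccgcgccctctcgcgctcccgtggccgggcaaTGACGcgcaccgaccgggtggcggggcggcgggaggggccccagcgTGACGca
Lyz2, chr10:117282273-117282522, minus strand: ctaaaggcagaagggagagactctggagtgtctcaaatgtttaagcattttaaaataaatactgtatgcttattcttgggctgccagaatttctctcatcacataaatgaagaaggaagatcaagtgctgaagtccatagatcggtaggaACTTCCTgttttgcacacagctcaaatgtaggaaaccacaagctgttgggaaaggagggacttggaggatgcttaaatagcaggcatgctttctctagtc
Chil3, chr3:106167565-106167814, minus strand: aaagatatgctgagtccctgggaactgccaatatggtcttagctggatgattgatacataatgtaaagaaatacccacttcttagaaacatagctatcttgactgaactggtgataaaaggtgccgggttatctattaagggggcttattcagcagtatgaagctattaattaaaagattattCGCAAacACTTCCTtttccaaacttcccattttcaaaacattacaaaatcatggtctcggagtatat

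The motifs were chosen with these sequences in view and were searched on both strands: TTGCG for a C/EBP half-site, TGACG for a half-site of the cyclic AMP response element (CRE), TGANTCA for AP-1, AGGAAGT for PU.1, TATAAA for the TATA box and GCGNGGGCG for EGR factors. No match shared a base with a match of another motif in the printed windows. The Cebpb window held 3 CRE half-sites, at 180 to 176, 53 to 49 and 7 to 3 bases before the start, and 17.8% of 32841 RefSeq windows of this length held at least 1. In Cebpa a C/EBP half-site lay 185 to 181 bases and a TATA box 30 to 25 bases before the start, motifs found in 14.5% and 12.4% of windows. Chil3 carried a C/EBP half-site at 67 to 63 and a PU.1 motif at 60 to 54 bases, and Lyz2 a PU.1 motif at 100 to 94 bases. PU.1 motifs were present in 7.69% of all windows, among them also those of Ly6c2 and the window at 1 of the F13a1 starts. The Vcan window held none of the 6 motifs, and none of the 7 genes with a window held the AP-1 motif (6.75% of windows) or the EGR motif (4.70%). Cebpd and Fn1 had no entry. These matches are descriptions of letters and do not show binding.

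Among the C/EBP factors, Cebpb differed most and Cebpa least. Cebpb, the factor of activated monocytes and macrophages, stood at 2037 counts in WT 1 and 2652 in WT 2, and reached 6060 in KO A and 5957 in KO B. The KO libraries were nearly equal and lay well above both WT libraries, of which WT 1 was lower. Cebpb rose 2.56-fold, a log2 difference of 1.21 (SE 0.117, 95% interval 0.93 to 1.49, limma adjusted p = 0.0147). It ranked 67 among 11864 genes by size of the increase. Against WT 1 alone the KO mean was 1.36 log2 units higher and against WT 2 alone 1.05.

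Cebpd, an acute phase factor that is switched on by STAT3, was at 1055 counts in WT 1, 870 in WT 2, 1320 in KO A and 1495 in KO B. The groups did not overlap, but the gap between KO A and WT 1 was only 0.23 log2 units. The log2 difference was 0.40 (SE 0.106, 95% interval 0.14 to 0.65), 1.46-fold, and did not pass (limma adjusted p = 0.0765). Cebpa, the lineage factor of myeloid progenitors, stood at 1195 and 1052 counts in KO A and KO B and at 870 and 920 in WT 1 and WT 2. Its groups did not overlap either, by 0.135 log2 units, and its difference was 0.23 (SE 0.0932, 95% interval 0.0042 to 0.45, limma adjusted p = 0.196), 1.26-fold.

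Cebpb and Cebpd each lie opposite another gene, and no source used here says whether the authors' counting used strand. In GENCODE M21, 19.2% of the 31-base words of Cebpb transcripts occur on the other strand in Tmem189, and 14.2% of those of Cebpd in Spidr. Tmem189 had 1849 and 1590 counts in KO against 1312 and 1317 in WT, a log2 difference of 0.29 (SE 0.0945, limma adjusted p = 0.119). The whole count of Tmem189 was below that of Cebpb in every library. Spidr had 1112 and 1288 counts in KO against 940 and 841 in WT (log2 difference 0.30, limma adjusted p = 0.125). Spidr thus stood near the level of Cebpd, with the same order of libraries, and reads from the stretch that the pair shares cannot be told apart if strand was not used.

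Ly6c2, the surface antigen by which classical monocytes are sorted, was at 1729 counts in WT 1, 1826 in WT 2, 3559 in KO A and 2320 in KO B. KO A was the high library, and KO B lay 0.28 log2 units above WT 2. The log2 difference was 0.58 (SE 0.167, 95% interval 0.17 to 0.98), 1.65-fold, and did not pass (limma adjusted p = 0.0954). Without KO A it was 0.31. The neighbouring family genes Ly6i and Ly6a were also highest in KO A: Ly6i stood at 750 counts there and 384, 295 and 280 in KO B, WT 1 and WT 2, and Ly6a at 1649 against 667, 678 and 1041. Ly6c1, the near copy that shares 21.4% of the 31-base words of Ly6c2 transcripts, had 17.5 to 36.9 counts and did not enter the test. Siglech, a dendritic cell marker named after its values were seen, was also highest in KO A, with 10562 counts. It had 4852, 4899 and 6161 counts in KO B, WT 1 and WT 2 and did not pass. The dendritic cell markers as a list had a median of -0.47. The part of dendritic cells in the KO A value of Ly6c2 was not tested.

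Lyz2, the lysozyme of monocytes, macrophages and granulocytes, was the most abundant of the 9 genes, with 73803 and 67880 counts in KO A and KO B, 48913 in WT 1 and 34154 in WT 2. The groups did not overlap, but the WT libraries differed by 0.51 log2 units. It rose 1.71-fold, a log2 difference of 0.78 (SE 0.168, 95% interval 0.38 to 1.19, limma adjusted p = 0.0463). This call lay just inside the threshold and needed both KO libraries, as given below. It ended with quantile normalization (adjusted p = 0.0544), with a shift of libraries to 1 median (0.0541), with log2 of the count plus 1 (0.0515) or plus 10 (0.0508) and without WT 2 (0.0504). Lyz1, the intestinal lysozyme gene next to it, shares 32.8% of the 31-base words and was listed at 71.7 to 181 counts.

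Chil3 encodes the chitinase-like protein Ym1 of monocytes, neutrophils and activated macrophages. It stood at 12372 counts in KO A, 10992 in KO B and 11045 in WT 1, and at 4228 in WT 2. WT 1 was level with the KO libraries, and only WT 2 was low. The log2 difference of 0.72 (SE 0.368, 95% interval -0.17 to 1.60, limma adjusted p = 0.287) was within the spread between replicates. The KO mean lay 0.075 above WT 1 and 1.36 above WT 2. Without WT 1 the gene passed (limma adjusted p = 0.00091) and without WT 2 it did not (0.822). In its relative Chil1 WT 2 was likewise the low library, with 1235 to 1308 counts in KO A, KO B and WT 1 and 395 in WT 2, and the near copy Chil4, which shares 28.9% of the 31-base words, had 107 to 116 counts in those 3 and 38.2 in WT 2.

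The matrix genes differed from each other in how well they separated the groups. Fn1, which encodes fibronectin, had 7666 counts in WT 1 and 7119 in WT 2, and 13090 in KO A and 15522 in KO B. Both WT libraries were close together, and the lowest KO value was 0.73 log2 units above the highest WT value. Fn1 rose 1.94-fold, a log2 difference of 0.90 (SE 0.104, 95% interval 0.65 to 1.15, limma adjusted p = 0.0147), with 0.85 against WT 1 and 0.95 against WT 2. Vcan, which encodes the proteoglycan versican, was at 2170, 1682, 884 and 1670 counts in KO A, KO B, WT 1 and WT 2. KO B and WT 2 were level, 0.0084 log2 units apart, and WT 1 alone was low. Its log2 difference of 0.49 (SE 0.219, 95% interval -0.036 to 1.02, limma adjusted p = 0.230) was within the spread between replicates. Without WT 2 it was 0.83 and passed (limma adjusted p = 0.0104), while without WT 1 it was 0.16 (adjusted p = 0.686) and without KO A 0.34 (adjusted p = 0.535).

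F13a1, the catalytic subunit of the clot-stabilizing factor XIII, was at 2094 counts in WT 1 and 3071 in WT 2, while KO A held 4140 and KO B 4748. The groups did not overlap, and WT 1 was again the lowest library. The log2 difference was 0.70 (SE 0.158, 95% interval 0.32 to 1.08), 1.72-fold, and missed the threshold narrowly (limma adjusted p = 0.0515). With no filter on low genes it passed (adjusted p = 0.0492), as it did with a filter of 2 log2 units (0.0459) and without WT 2 (0.00254). Without WT 1 the difference was 0.47 and the adjusted p 0.0785. F13a1 is also carried by platelets. Of 9 platelet markers 6 were in the table, 2 were abundant enough to test and neither passed, and the list summed to 0.00273% and 0.00292% of counts in KO and 0.00211% and 0.00202% in WT.

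**Figure D2:**
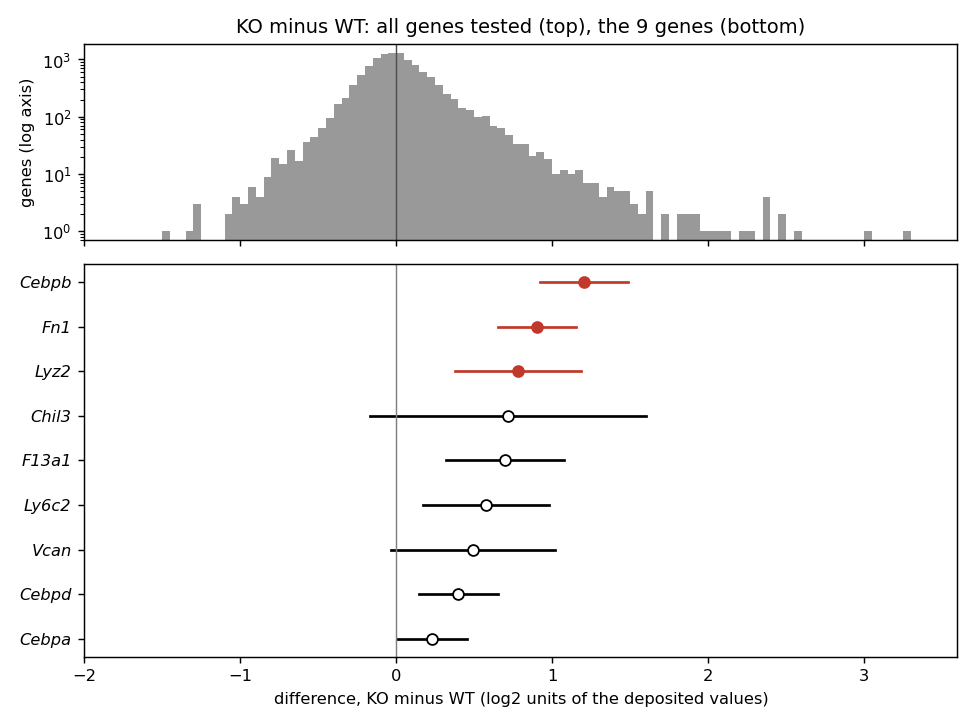
Log2 differences, KO minus WT, for all 11864 genes tested (top, histogram with a log count axis) and for the 9 genes (bottom, points with 95% intervals from limma; filled red where the adjusted p was under 0.05). All 9 points lie right of 0, from 0.23 for Cebpa to 1.21 for Cebpb, and the intervals of Chil3 and Vcan include 0.

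The calls of Cebpb, Fn1 and Lyz2 needed both KO libraries. Without KO A the adjusted p in limma was 0.0582 for Cebpb, 0.0545 for Fn1 and 0.170 for Lyz2, at log2 differences of 1.19, 1.02 and 0.72. Without KO B it was 0.0851, 0.0851 and 0.155, at 1.22, 0.78 and 0.84. Over all genes 0 were called higher in either case, against 557 with all libraries (2508 genes without KO A and 2448 without KO B had an unadjusted p under 0.05). No rise of a gene in the lists below passed in either of these fits, while falls were not counted by list there. In both fits the lone KO library was assumed to vary like the WT libraries.

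Per kilobase of the longest coding transcript in GENCODE M21, the order of levels was nearly the same in both groups. In WT it ran from Lyz2 with 31561 counts per kilobase over Chil3 (4962), Ly6c2 (2163), Cebpb (1559), Fn1 (889), F13a1 (653), Cebpa (341) and Cebpd (257) to Vcan (103). In KO it was Lyz2 (53831), Chil3 (7591), Cebpb (3995), Ly6c2 (3576), Fn1 (1720), F13a1 (1124), Cebpa (428), Cebpd (376) and Vcan (155). Cebpb and Ly6c2 changed places, but in KO their libraries overlapped, at 3961 to 4029 and 2823 to 4329 counts per kilobase, so these neighbours did not differ beyond their spread there. In WT they did not overlap, at 1354 to 1763 and 2104 to 2222. Among the C/EBP factors Cebpb was the most abundant in all 4 libraries on this scale.

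The 9 genes did not share 1 order of the libraries. WT 1 was the lower WT library in 5 of them (Cebpa, Cebpb, Ly6c2, Vcan and F13a1) and WT 2 in 4 (Cebpd, Lyz2, Fn1 and Chil3). The gap between the WT libraries ran from 0.054 log2 units for Cebpa, 0.062 for Ly6c2 and 0.10 for Fn1 to 0.67 for Vcan and 1.29 for Chil3. For each gene, likeness to others was measured as the root mean square difference of their deviations from their own means over the 4 libraries, a description that rests on 4 points. No gene of the 9 had another of the 9 among its 3 nearest genes. The nearest of the 9 was 0.155 log2 units away for the pair Cebpa and Cebpd and 0.277 away for Chil3.

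Nearest to Cebpb were Tnfaip3, a brake on NF-kB (0.055), Plaur, the urokinase receptor (0.060), and Ifng, interferon gamma (0.061). Tnfaip3 stood at log2 values of 13.20 and 13.27 in KO and 11.84 and 12.09 in WT. Nearest to Chil3 were Mmp8, Lcn2 and Ltf (0.038, 0.057 and 0.059), all 3 neutrophil granule genes. Ltf stood at log2 values of 15.94 and 15.64 in KO A and KO B, 15.79 in WT 1 and 14.43 in WT 2, which is the order of Chil3. Nearest to Lyz2 were Lars2 (0.035), Hp, the haemoglobin-binding haptoglobin (0.063), and F5, coagulation factor V (0.073), all lowest in WT 2.

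Among the closest profiles to Fn1 were those of Xylt1 (0.030) and the NK cell receptor gene Ncr1 (0.030). F13a1 was nearest to Steap3 (0.024), Creb5 (0.030) and Mfsd2b (0.038), and Vcan to the chaperone genes Hspa5 (0.018) and Dnaja1 (0.077) and to Gpr171 (0.087). Ly6c2 was nearest to Pgam1-ps2 (0.049), Cmah (0.049) and its relative Ly6i (0.058). Genes near Cebpa were Stt3b, Ppard and Ppp2r1a (0.0078 to 0.011) and near Cebpd Aacs, Ypel3 and Ctdspl (0.0038 to 0.013). Small distances are common for genes that vary little, as these do.

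**Figure D3:**
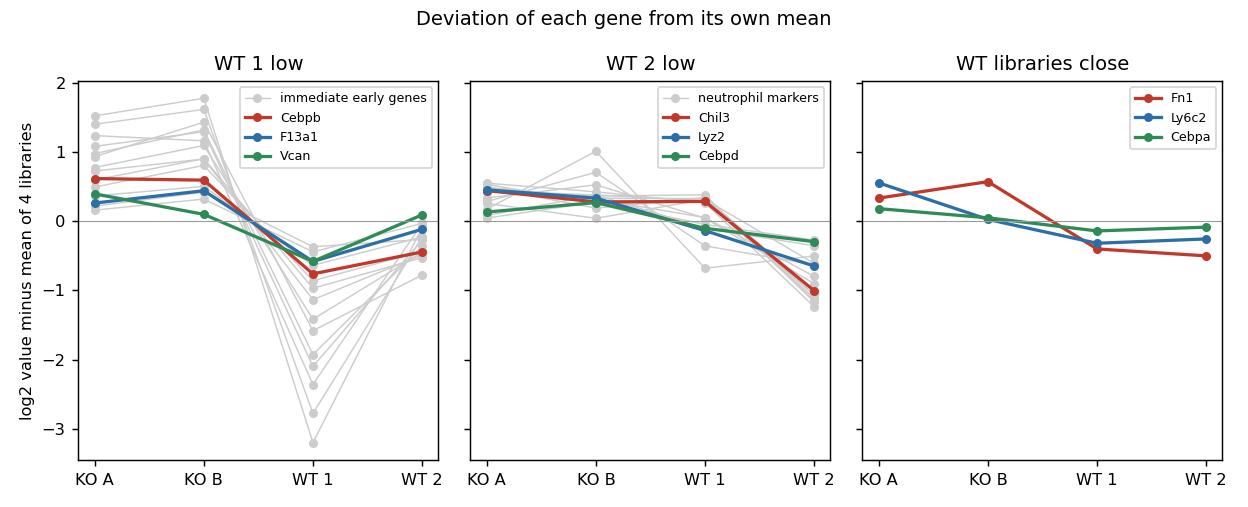
Deviation of each gene's log2 value from its own mean over the 4 libraries, with lines joining libraries only to guide the eye; grey lines are the tested immediate early genes (left) and neutrophil markers (middle). Cebpb, F13a1 and Vcan are lowest in WT 1, as the immediate early genes are, Chil3, Lyz2 and Cebpd are lowest in WT 2, as are most neutrophil markers, and the WT libraries lie close together for Fn1, Ly6c2 and Cebpa.

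No other gene of the C/EBP family passed, while a gene that controls C/EBP protein levels rose. Of 7 other family and Tribbles genes 5 were tested, 1 rose and 4 did not pass, with a median of 0.26. Beside this and each list below stand the shares over all genes tested, 4.69% called higher and 2.23% lower. The gene that rose was Trib1, an adaptor that leads C/EBPα to degradation, with 1364 counts in WT 1, 2832 in WT 2, 6137 in KO A and 5352 in KO B (log2 difference 1.33, SE 0.253, limma adjusted p = 0.0362). Both KO libraries were above both WT libraries, and WT 1 was the lowest, as for Cebpb. Cebpg, which lacks an activation domain, differed by 0.06 (95% interval -0.13 to 0.26), and Cebpe, the factor of late granulocytes, by 0.26 (95% interval -0.25 to 0.76) with WT 2 lowest. With robust moderation 0 of the 5 passed as higher, and 2 did with the filter of 2 log2 units or without WT 1. Ddit3 differed by 0.37 (95% interval 0.16 to 0.58, limma adjusted p = 0.0560) and did not pass. Cebpz differed by 0.23 (95% interval 0.0355 to 0.43, limma adjusted p = 0.146) and did not pass either. For Ddit3 and Cebpz both KO libraries lay above both WT libraries, an order found for 28.1% of all genes tested. Cebpg, Cebpe, Ddit3 and Cebpz were named after their values were seen. Trib2 and Trib3 were too low to test.

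Of 15 transcription factors that act beside C/EBP factors in monocytes, 6 rose, 0 fell and 9 did not pass, with a median of 0.32. The share called higher over all genes tested was 4.69%. Klf4, which is needed for monocyte development, rose by 1.19 log2 units (SE 0.0909), Nfil3 by 1.10 (SE 0.119), Egr1 by 2.36 (SE 0.274) and Nr4a1, the factor of patrolling monocytes, by 1.62 (SE 0.201), with limma adjusted p-values of 0.0138, 0.0147, 0.0147 and 0.0173. Egr1, Egr2 and Nr4a1 are also immediate early genes. The lineage factors Spi1 (PU.1) and Irf8, named after their values were seen, differed by 0.04 and -0.12 and did not pass.

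Among 24 textbook targets of C/EBP factors 22 were in the table and 19 were tested. Of these 9 rose, 0 fell and 10 did not pass, with a median of 0.67, which was 0.33 without WT 2 and 0.65 without WT 1. Ptgs2, the inducible cyclooxygenase, rose by 1.93 log2 units (SE 0.1725) and Ccl3, a chemokine, by 1.82 (SE 0.183), with a limma adjusted p of 0.0147 each. Their mean counts in KO were 10.1-fold and 8.37-fold those of WT. Csf1r, the receptor that maintains monocytes and macrophages, rose by 0.54 (SE 0.0795, adjusted p = 0.0216) and Socs3, a brake on STAT3, by 0.91 (SE 0.139, adjusted p = 0.0233). The granule genes Camp, Ltf and Lcn2, named after their values were seen, had differences of 0.82, 0.67 and 0.79 and did not pass, with WT 2 low as for Chil3. Mpo and Elane, granule genes of the same list also named after their values were seen, differed by 0.46 and 0.32 and did not pass. WT 2 was lowest in Mpo and Elane too, but WT 1 lay below both KO libraries. It stood at 3225 counts against 3732 and 4693 for Mpo and at 578 against 642 and 824 for Elane.

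Other markers of classical monocytes were mixed. Of 28, 26 were tested, 12 rose, 1 fell and 13 did not pass, with a median of 0.51. Clec4e, the receptor Mincle, rose by 1.32 (SE 0.127, limma adjusted p = 0.0147), Emilin2, a matrix protein, by 1.09 (SE 0.124, adjusted p = 0.0147) and Thbs1, thrombospondin, by 1.62 (SE 0.220, adjusted p = 0.0199). Plbd1 was the gene that fell, by 0.46 (SE 0.0830, limma adjusted p = 0.0319).

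Ccr2, the chemokine receptor that defines classical monocytes and is also carried by dendritic cell subsets, was level in the 4 libraries. It stood at log2 values of 13.19 and 13.18 in KO and 13.10 and 13.22 in WT, a difference of 0.02 (95% interval -0.18 to 0.22, limma adjusted p = 0.908). Ccr2 and the monocyte genes Ms4a4c, Ms4a6c and Plac8 were named after their values were seen; the last 3 differed by -0.12, -0.08 and 0.14 and did not pass. The groups overlapped in all of these 4 genes.

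All 12 patrolling monocyte markers were tested, 6 rose, 0 fell and 6 did not pass, with a median of 0.49 (0.41 without KO A). In all 12 both KO libraries lay above both WT libraries, an order found for 28.1% of all genes tested. The number that passed was 3 with quantile normalization and 3 without WT 2. Besides Nr4a1, the integrin gene Itgal rose by 0.66 (SE 0.0916, limma adjusted p = 0.0199), Ace, angiotensin-converting enzyme, by 0.73 (SE 0.114, adjusted p = 0.0242) and Pou2f2 by 0.39 (SE 0.0796, adjusted p = 0.0418). Itgal and Spn are carried by lymphocytes as well.

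Partners of the matrix and clotting genes were described by the same rule. Of 13 receptors and proteases for fibronectin and versican 10 were tested, 2 rose and 8 did not pass, with a median of 0.14. The hyaluronan receptor Cd44 rose by 0.58 (SE 0.0870, limma adjusted p = 0.0227) and Tlr2, a receptor for versican, by 0.65 (SE 0.0918, adjusted p = 0.0206), while the fibronectin receptor chains Itga5 and Itga4, named after their values were seen, differed by 0.13 and -0.06. Of 14 coagulation and fibrinolysis genes 8 were tested, 3 rose and 5 did not pass, with a median of 0.49. These were Plaur (1.09, SE 0.107, limma adjusted p = 0.0147), the thrombin receptor thrombomodulin gene Thbd (0.67, SE 0.0865, adjusted p = 0.0191) and F10, coagulation factor X (0.63, SE 0.122, adjusted p = 0.0371).

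**Figure D4:**
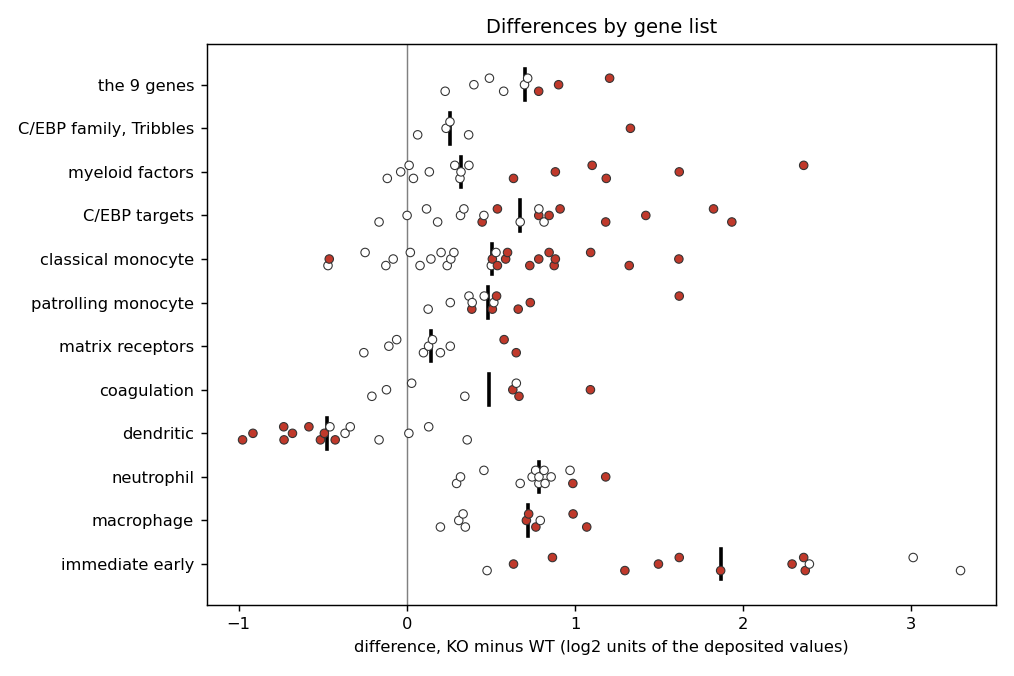
Log2 differences, KO minus WT, of every tested gene in 12 lists; each point is a gene, filled red where limma's adjusted p was under 0.05, and black bars are list medians. Medians are 0.70 for the 9 genes, 0.67 for C/EBP targets, 0.51 and 0.49 for classical and patrolling monocyte markers, -0.47 for dendritic cell markers and 1.87 for immediate early genes.

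Genes of other cell types and states moved in the same libraries. Among 16 markers of dendritic cells none rose and 9 fell, 7 did not pass and the median was -0.47. Over all genes tested, 4.69% were called higher and 2.23% lower, here and for each list below. The summed level of the dendritic cell markers was 1.30% to 1.37% of counts in KO and 1.89% to 1.90% in WT. All 16 were in the table and none was at the lowest value, so the defining markers of the labelled cell type were read in every library. Summed, the 9 genes made up 0.263% of counts in WT 1, 0.192% in WT 2, 0.380% in KO A and 0.369% in KO B. Immediate early genes rose in 9 of 13, with 0 lower and a median of 1.87 (2.35 against WT 1 and 1.30 against WT 2). With robust moderation 6 passed as higher, and 7 did with quantile normalization or with log2 of the count plus 1 or plus 10. The list summed to 0.0703% of counts in WT 1, 0.181% in WT 2 and 0.434% to 0.513% in KO. Cebpb and Trib1 shared that order of libraries, apart from the order of the KO pair.

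Among 14 markers of neutrophils 2 rose, none fell and 12 did not pass, and the median was 0.79, with 0.16 when KO was set against WT 1 and 1.34 against WT 2. Without WT 1, 12 of the 14 passed as higher, and with robust moderation or quantile normalization 1 did. Their summed level was 0.316% in WT 2, 0.829% in WT 1 and 0.860% to 0.903% in KO, so WT 2 was the low library, as for Chil3. Of 12 macrophage markers 10 were tested, 5 rose and 5 did not pass, with a median of 0.72 (0.46 without KO B) and a summed level of 0.0711% to 0.0906% in KO and 0.0417% to 0.0449% in WT. NK cell markers rose in 8 of 9, with a median of 0.87 and 0.0414% to 0.0533% of counts in KO against 0.0191% to 0.0208% in WT. Red blood cell markers had a median of 2.02 (1.31 without WT 1), and all 10 were higher in both KO libraries than in both WT libraries. That order was found for 28.1% of all genes tested. By the test 6 of the 10 rose, none fell and 4 did not pass. Fech, the last enzyme of haem synthesis, rose by 0.99 log2 units (SE 0.132, limma adjusted p = 0.0198), and Sptb, the spectrin of the red cell membrane, by 1.94 (SE 0.299, adjusted p = 0.0241). The list summed to 0.0169% of counts in WT 1, 0.065% in WT 2, 0.148% in KO A and 0.223% in KO B, so WT 1 was the low library, as for the immediate early genes. Its count was 10 without WT 1 or without WT 2, 4 with quantile normalization and 2 with robust moderation or with log2 of the count plus 1 or plus 10. Of 7 tested B cell markers and 4 tested T cell markers 1 each passed as higher, with medians of 0.076 and 0.22, and the B cell call ended with quantile normalization, with the shift of libraries to 1 median, with no filter, with no intensity trend and without any 1 library. Fibroblasts also make fibronectin and versican. Of 9 stromal markers 5 were in the table, none was abundant enough to test, and the list summed to 0.00101% to 0.0011% in KO and 0.000775% to 0.000858% in WT. The part of these cell types or of the immediate early genes in the differences of the 9 genes was not tested.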

How the data were processed

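The deposited table holds log2 values on a variance-stabilized scale for 17300 Ensembl genes in 4 libraries, which the authors had already scaled to each other. The submitters' processing notes name Salmon 1.10.1, DESeq2 and GRCm39 without their roles. No source used here states the annotation, the gene filter or the strand setting. The library kit was stranded and meant for very small amounts of total RNA, per the labels' protocols.

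All libraries share the lowest value, 8.04, which alone fixes the inverse of the transform and gave normalized counts. These are estimates after scaling, so the sequencing depth is unknown, and low values are compressed, so a log2 difference understates the change of weakly expressed genes. Symbols came from GENCODE M21 (17289 identifiers matched, 11 did not). The test covered the 11864 genes whose mean exceeded the lowest value by 1 log2 unit or more. It compared KO with WT by limma 3.58.1 (R 4.3.3), with an intensity trend, two-sided, with Benjamini-Hochberg adjustment over all genes tested. Moderation gave 6.48 total degrees of freedom. The fit was tested on simulated data. In 31-base words, all transcripts of a gene in GENCODE M21 were compared with those of all other genes.

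The 9 genes and all lists were chosen with earlier results of these data known. Lists are described by counts and medians, with no test of their own. Named beside the 9 were at most 4 genes per list past the threshold, by smallest p, the near copies of the 9 whatever their values, and the 3 nearest genes in profile, gene models passed over; 2 genes that this rule names are not reported here. Genes outside this rule that are given with a difference are marked as named after their values were seen. Not marked are genes cited for a check or a marker level and Plbd1, the classical monocyte marker that fell. Alternatives were other filters, scalings, value scales and moderation, and leaving out each library.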

Additional observations from a re-analysis of the deposited data

How the results depend on the processing

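With all 4 libraries and 8 other settings, all 9 genes kept their direction, and between 2 and 4 of them passed as higher. Cebpb and Fn1 passed in each of these 8 settings (largest adjusted p in limma 0.0210 and 0.0244). Lyz2 and F13a1 lay near the threshold and changed sides as given with their values. Quantile normalization left 366 genes higher and 282 lower, so that 56.5% of calls were higher in place of 67.8%, and the shift of libraries to 1 median gave 60.7%. Leaving out 1 library at a time gave 0 to 620 genes higher, 0 to 200 lower and 0 to 4 of the 9 genes higher, with 0 without KO A and 0 without KO B. The 3 genes called lower without KO B stand against 265 with all libraries, and 167 were lower without WT 1. All 9 genes kept their direction in these fits too, at differences as low as 0.08 for Chil3 and 0.16 for Vcan and Cebpa. Among the lists, the median of the B cell markers turned from 0.076 to -0.16 without KO B and to -0.22 without WT 2, and was at most 0.37 in these fits, while the medians of all other lists kept their direction in every setting. With 2 libraries a group, a lone library was assumed to vary like the other group. No paired analysis was possible because the numbers in the KO column names match no KO title.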
